A study of Mus musculus with 7 samples.

Results

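CD8 T cells of the mouse heart were taken from droplet single-cell RNA sequencing of 7 heart libraries. Members were chosen by their own measured UMIs (unique molecular identifiers, 1 per captured transcript): at least 1 of Cd3e or Cd3d, at least 1 of Cd8a or Cd8b1, and none of Cd4, Cd79a or Csf1r. Of 40158 cells kept, 814 met this gate. The study compared myocardial infarction (MI) with a sham operation, hearts labelled P1, in the newborn period, with hearts of 8 weeks, and WT mice of the inbred strain C57BL6/J with mice labelled MerTK KO, which lack a receptor that macrophages use to engulf dying cells. WT P1 MI was sequenced as replicates 1 and 2. The other 5 groups were 1 library each: WT P1 sham, 8 week sham and 8 week MI from WT mice, and KO sham and KO MI from MerTK KO mice at P1. The time between surgery and collection, the hearts per library, their sex and the deleted part of Mertk are not given in the sources used here. All hearts were perfused, digested, cleared of red and Annexin V-binding cells, and split on CD45. The CD45+ fraction was then mixed back with the CD45- fraction at 2 to 1, so shares of cells do not give the composition of the tissue.

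CD8 T cells recognise peptides on MHC class I through the T cell receptor, which signals through the CD3 chains. The coreceptor CD8, a dimer of the chains encoded by Cd8a and Cd8b1, binds MHC class I at the same time. Naive CD8 T cells recirculate through lymph nodes, led by the chemokine receptor CCR7, and live on IL-7. Memory and effector cells store chemokine transcripts such as Ccl5 and cytotoxic granule proteins such as granzymes.

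The members numbered 52 in WT P1 sham, 17 in WT P1 MI replicate 1, 29 in replicate 2, 630 in 8 week sham, 8 in 8 week MI, 50 in KO sham and 28 in KO MI. 8 week sham thus held most of the members. No member shared its barcode with a member of another library (0 of 814). Library totals ran from 7707724 to 130847843 UMIs. The members' UMIs summed to 4102424 in 8 week sham and to 544639 in WT P1 sham. They summed to 16387 in 8 week MI, where the median member held 1708.5 UMIs, against 4653 to 10620 in the other libraries. The single deepest barcode gave 20.2% of the sum in WT P1 MI replicate 2 and 27.1% in 8 week MI, but 2.50% in 8 week sham. Libraries with under 20 members, WT P1 MI replicate 1 and 8 week MI, entered none of the main tests and are given as values. Replicate 1 entered only an alternative fit with a minimum of 15 cells. The targeted gene Mertk gave 0, 0, 1, 4, 0, 1 and 0 UMIs over the members of the 7 libraries in the order above, and 3' tags do not check which part was deleted.

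UMIs of both coreceptor chains were seen in 35 of 52 members of WT P1 sham, 11 of 17 of WT P1 MI replicate 1, 15 of 29 of replicate 2, 397 of 630 of 8 week sham, 2 of 8 of 8 week MI, 36 of 50 of KO sham and 16 of 28 of KO MI. The beta chain Cd8b1 (GRCm38 chr6:71322788-71337494, close to Cd8a at chr6:71373427-71379173) was seen in 98.1% of the members of WT P1 sham, 100% of WT P1 MI replicate 1, 93.1% of replicate 2, 97.0% of 8 week sham, 45 of the 50 of KO sham and 82.1% of KO MI. In 8 week MI it was seen in 62.5% of 8 members. These shares describe the gate, which used the gene. Cd3d, a chain of the CD3 complex, lay between 646 and 1039 CPM (UMI counts scaled to a common total per library, summed over members) in all 7 libraries. T cell genes outside the gate were present in every library as well. The receptor constant region Trac ranged from 206 to 732 CPM, and the receptor-proximal kinase Lck from 119 to 427 CPM. In 8 week MI, 5 of the 8 members passed on exactly 1 UMI of CD8, and the median member held 2 UMIs of CD3. In the other libraries the median was 7 to 11 CD3 UMIs, and between 2 and 61 members passed on exactly 1 CD8 UMI. Just outside the gate, 18 cells of WT P1 sham, 54 of 8 week sham and 7 of KO sham were kept out by a Cd4 UMI. A Csf1r UMI alone kept out 42 cells of WT P1 MI replicate 2, beside 29 members, and 28 of KO MI, beside 28 members. In the other MI libraries it kept out 1 cell of WT P1 MI replicate 1 and 4 of 8 week MI. Among sham libraries it kept out 4 cells of WT P1 sham, 104 of 8 week sham and 3 of KO sham.

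Free RNA, or cells that share a barcode, can place T cell transcripts with those of other cells. Which of these was the source here was not tested. Among barcodes positive for the B cell gene Cd79a, 4.58% (218 of 4765, 95% exact interval 4.0 to 5.21) held UMIs of both CD3 and CD8 in 8 week sham, at a median depth of 3053 UMIs. CD3 was seen in 601 of these 4765 and CD8 in 238. The share was 2.34% (8 of 342) in WT P1 sham and 0.595% (2 of 336) in WT P1 MI replicate 2. It was 0 of 149 in KO sham and 0 of 95 in KO MI. Col1a1-positive, Ptprc-negative stromal cells held both in 0.227% (3 of 1324) in 8 week sham and in none of the other 6 libraries. Exact intervals cover counting error only.

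The CD8 share of all kept cells was lower in 3 of the 4 MI libraries than in any sham library. WT P1 sham had 3.27% (95% exact interval 2.45 to 4.27), 8 week sham had 4.11% (3.81 to 4.44) and KO sham had 1.91% (1.42 to 2.52). After MI it was 0.286% (0.192 to 0.411) in WT P1 MI replicate 2, 0.256% (0.110 to 0.503) in 8 week MI and 0.424% (0.282 to 0.612) in KO MI. WT P1 MI replicate 1 lay apart from replicate 2, at 2.20% (1.29 to 3.50), with an interval that overlapped that of WT P1 sham. With each cell thinned to 1500 UMIs before the gate, replicate 1 stood at 1.00%, and all 4 MI libraries then lay below KO sham, the lowest sham library at 1.73%. A smaller denominator was cells with no UMI of Ms4a1, Cd79b, C1qa, Col1a1 or Cdh5 and at most 5 of Hbb-bs. Other genes of other lineages could remain in them. Among these cells the share was 12.4% in WT P1 sham, 10.1% in 8 week sham, 3.47% in KO sham and 7.45% in WT P1 MI replicate 1. It was 0.564% to 0.696% in the other MI libraries. The 2 libraries of the 1 replicated group therefore did not fix the size of an injury difference. Fewer CD8 T cells and more of the other recovered cells cannot be told apart in such a share. The part of the Csf1r exclusion in these shares was not tested. CD8 cells made up 45.6% (36.3 to 55.2) of the CD8 and CD4 gated cells in WT P1 sham and 58.8% to 77.8% in the other 6 libraries. With each cell thinned to 1500 UMIs before the gates, WT P1 sham stood at 62.7% (37 of 59, 49.1 to 75.0) and the others at 70.0% to 100%.

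The share of members with a UMI was compared between libraries for the chemokine Ccl5 (CCL5, a T cell and NK cell attractant stored in memory cells, GRCm38 chr11:83525778-83530518), the cytotoxic granule gene Nkg7 and Dapl1, a gene of resting T cells (chr2:59484653-59505020). With each cell thinned to 1500 UMIs, Ccl5 was seen in 28.8% (95% exact interval 17.1 to 43.1) of members in WT P1 sham, 23.5% (6.81 to 49.9) in WT P1 MI replicate 1 and 20.7% (7.99 to 39.7) in replicate 2. It was seen in 36.4% (32.6 to 40.3) in 8 week sham, 44.9% (30.7 to 59.8) in KO sham and 53.8% (33.4 to 73.4) in KO MI. In 8 week MI it was seen in 3 of 4 members deep enough to thin. The intervals of the P1 WT libraries and the KO libraries overlapped. Without thinning, the share was 44.8% to 48.1% in the WT libraries with at least 17 members and 58.0% to 60.7% in the KO libraries. Thinning left out 4 members of 8 week sham, 4 of 8 week MI, 1 of KO sham and 2 of KO MI. B cells, which should lack Ccl5, held it in 5.71% (4.99 to 6.51) in 8 week sham and in 0% to 3.03% elsewhere at the same thinned depth. The CD8 share was above the B cell share in every library.

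Nkg7 was likewise lower in the P1 libraries of WT mice than in the other libraries, by share. WT P1 sham had it in 38.5% (25.3 to 53.0) of thinned members and WT P1 MI in 35.3% (14.2 to 61.7) for replicate 1 and 37.9% (20.7 to 57.7) for replicate 2. It was seen in 58.5% (54.5 to 62.4) in 8 week sham, 61.2% (46.2 to 74.8) in KO sham and 65.4% (44.3 to 82.8) in KO MI. B cells held it in 0% to 3.03%. For Dapl1 the share was 24.9% (21.6 to 28.5) in 8 week sham, 23.1% (12.5 to 36.8) in WT P1 sham, and 3.85% to 6.90% in WT P1 MI and both KO libraries. No thinned NK cell held a Dapl1 UMI, which allows a share of cells with a UMI of up to 0.440% in the 836 NK cells of 8 week sham by the exact interval and does not limit the share expressing it, and 12.1% of the thinned CD4 cells of that library did. Gzma, encoding granzyme A, was seen in 3.45% to 14.3% of members in the 6 libraries other than 8 week MI. Klrd1, encoding the CD94 receptor chain, ran from 11.5% in KO MI to 48.3% in WT P1 MI replicate 2.

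**Figure D1:**
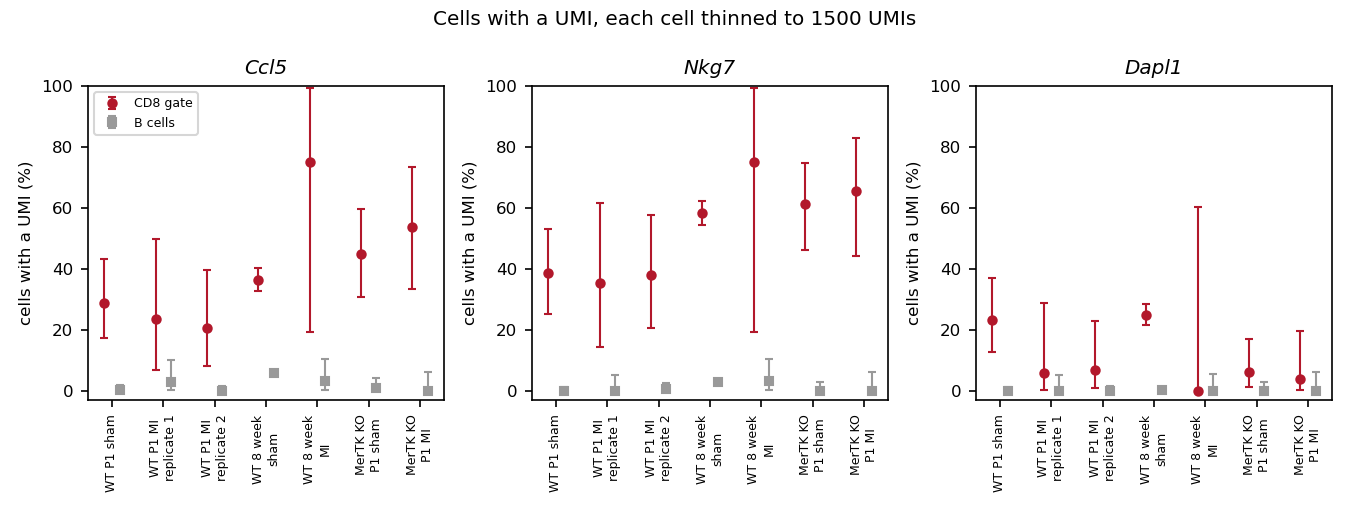
Share of cells with at least 1 UMI of Ccl5, Nkg7 or Dapl1 in percent, with each cell thinned to 1500 UMIs, by library, for CD8-gated cells (red circles) and B cells (grey squares). Bars are 95% exact intervals for counting error. For Ccl5 and Nkg7 the CD8 points lie above the B cell points in all 7 libraries, with Ccl5 at 20.7% in WT P1 MI replicate 2 and 53.8% in KO MI.

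Members were also counted by their Ccl5 and Dapl1 UMIs together. Over all 814 members and without thinning, 287 held Ccl5 alone, 200 Dapl1 alone, 97 both and 230 neither. In 8 week sham 203 held Ccl5 alone, 177 Dapl1 alone and 83 both. In KO sham 26 held Ccl5 alone, 4 Dapl1 alone and 3 both, and in WT P1 sham 18, 9 and 7. Whether these counts differ from what the shares of the 2 genes would give was not tested. A cell in which a gene was not seen may still express it at this depth.

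CD8 T cells were then set against CD4 T cells of the same libraries, gated on CD3 and Cd4 with no CD8. Both classes reached 20 cells in WT P1 sham, 8 week sham and KO sham. Of 5129 genes tested, 14 were called, which is 0.273%, with 6 higher (0.117%) and 8 lower (0.156%) in CD8. A gene was called where the log2 fold change reached 1 in size and the adjusted p fell below 0.05 in edgeR's quasi-likelihood test with library as a block, adjusted over all genes tested with the gate genes left out. The fit had 2 residual degrees of freedom. All 14 differed in the same direction in 3 of 3 libraries.

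Of the 6 higher genes, 2 were in the memory and effector list, Ly6c2 and Ctsw. Ly6c2, a surface glycoprotein of memory CD8 T cells (GRCm38 chr15:75108158-75111970), stood at 288, 650 and 786 CPM in CD8 cells of WT P1 sham, 8 week sham and KO sham, against 4.26, 81.8 and 94.8 CPM in CD4 cells. Its log2 fold change was 3.66 ± 0.44 (SE, n = 3 libraries, adjusted p = 0.0444 in edgeR). Its counts may hold reads of the near-identical Ly6c1. Ctsw, encoding the protease cathepsin W of cytotoxic lymphocytes, stood at 200, 203 and 291 CPM against 57.6, 39.2 and 63.2 CPM. For both genes every CD8 level lay above every CD4 level. Fam241a stood at 158, 137 and 125 CPM against 29.8, 18.2 and 15.8 CPM, with a log2 fold change of 2.93 ± 0.24 (adjusted p = 0.0375 in edgeR). Hdgfl3, Dnajc15 and Epsti1 completed the higher side, at log2 fold changes of 2.97, 1.68 and 1.55.

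Of the 8 lower genes, 4 were in the list of CD4 helper and regulatory genes, Il2ra, Ctla4, Gata3 and Tnfrsf18. Il2ra, the alpha chain of the IL-2 receptor and a hallmark of regulatory T cells, stood at 0, 22.4 and 7.21 CPM in CD8 cells against 14.9, 246 and 374 CPM in CD4 cells (log2 fold change -3.85 ± 0.45, adjusted p = 0.0444 in edgeR). Ctla4, an inhibitory receptor, stood at 14.7, 42.7 and 62.5 CPM against 147, 307 and 285 CPM. The helper lineage factor Gata3 was lower by a log2 fold change of -1.87 ± 0.22, and the transcription factor Maf by -2.56 ± 0.26. The activation receptors Tnfrsf9 and Tnfrsf18 stood at -3.22 and -1.88, and Glrx and Fam110a at -2.48 and -2.30. CD8 cells were below CD4 cells in each of the 3 libraries for every one of these 8 genes, which were called in these same libraries. In WT P1 sham the direction rested on 0 against 1 UMI for Tnfrsf9 and 0 against 7 for Il2ra. Foxp3, the regulatory lineage factor, had a log2 fold change of -3.60 ± 0.61 and did not pass the test (adjusted p = 0.105 in edgeR).

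By list, 4 of 10 CD4 helper and regulatory genes tested were lower in CD8, with a median log2 fold change of -2.29 against 0.00 over all genes. Of 21 memory and effector genes, 2 were higher and none lower, with a median of 0.81. None of the 19 naive genes and none of the 20 genes of T cell receptor signalling was called, with medians of 0.26 and 0.04. Ccl5 stood at 1247, 3589 and 2184 CPM in CD8 cells against 0, 441 and 89.6 CPM in CD4 cells. CD8 cells were higher in all 3 libraries, yet the test did not pass (log2 fold change 4.78 ± 0.85, adjusted p = 0.133 in edgeR). Nkg7 also did not pass, at 2.73 ± 0.48 (adjusted p = 0.128), nor did Dapl1 at 0.99 ± 0.63 (adjusted p = 0.746). Among barcodes with no UMI of 5 genes of B cells, macrophages, fibroblasts or vessels and at most 5 of haemoglobin Hbb-bs, here called the cleaner gate, 46 genes were called (1.05%). Ccl5 (adjusted p = 0.0343 in edgeR) and Nkg7 (adjusted p = 0.0262) were among them. The count was 261 without WT P1 sham, with all 14 genes among them, and 0 without 8 week sham (227 at an unadjusted p under 0.05 in edgeR) or without KO sham (393), and DESeq2 called 45 in the 3 libraries.

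**Figure D2:**
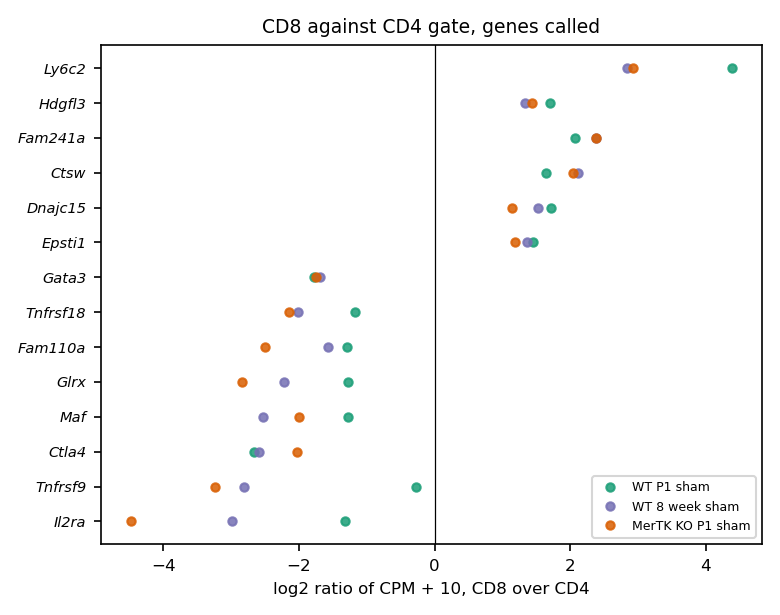
Log2 ratio of CD8 over CD4 levels (CPM + 10) per library for the 14 genes called between the classes, 1 point per library (WT P1 sham, 8 week sham, KO sham). All points of the 6 higher genes lie right of 0 and all points of the 8 lower genes lie left of it.

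Natural killer (NK) cells, cytotoxic lymphocytes that carry no T cell receptor, were gated on Ncr1 with no CD3. They were compared with CD8 T cells in WT P1 MI replicate 2, 8 week sham, KO sham and KO MI. Of 3757 genes tested, 163 were called (4.34%), 71 higher (1.89%) and 92 lower (2.45%) in CD8 T cells, in a fit with 3 residual degrees of freedom and library as a block.

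Genes of resting, recirculating T cells were higher in CD8 T cells. Of 16 naive and quiescence genes tested, 11 were higher and none lower, with a median log2 fold change of 2.04 against -0.01 over all genes. Dapl1 gave 1116 UMIs in CD8 T cells and 1 in NK cells over the 4 libraries, a ratio of 916 per UMI total (95% exact interval 164 to 36200, counting error only). Ccr7 gave 1582 against 12 UMIs, a ratio of 108 (61.8 to 210). CD8 T cells were higher in 4 of 4 libraries for both. The transcription factors of the naive state Lef1 and Tcf7 were higher by log2 fold changes of 2.66 ± 0.33 and 2.52 ± 0.25 (adjusted p = 0.00352 and 0.00106 in edgeR). The egress receptor S1pr1 was higher by 2.17 and the IL-7 receptor Il7r by 3.29 ± 0.67 (adjusted p = 0.0298). Il7r stood at 91.3, 524, 327 and 175 CPM in CD8 T cells and at 13.1, 21.1, 165 and 11 CPM in NK cells, in the order of libraries above. Klf2, which controls S1pr1, was called at 1.71 but stood at 1047 against 1115 CPM in 8 week sham, so it was higher in 3 of 4 libraries.

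Of 19 genes of T cell receptor signalling, 8 were higher, among them Cd28, Trbc1, Trbc2, Lat, Trac, Cd5 and Cd6. Trac gave 1628 against 52 UMIs, a ratio of 25.7 (19.5 to 34.5). Cd5, a brake on receptor signalling, gave 350 against 1 UMI. Cd6 gave 368 against 0, at least 100.65-fold higher against a floor of 3 UMIs over the NK cells (exact lower limit of the ratio 81.4). Both gates used CD3, so that receptor genes differ follows the choice of cells in part. The T cell lineage factor Bcl11b was higher by 4.20 ± 0.36 and the adhesion receptor Slamf6 by 4.44 ± 0.42. Fam241a was higher by 4.74 ± 0.34, as it was against CD4 cells. Klk8, Ifi27l2a and Rgs10 were the other named genes on this side, at 3.53, 3.50 and 2.85.

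Cytotoxic genes were lower in CD8 T cells. Of 26 memory and effector genes tested, 11 were lower and none higher, with a median of -1.52. Gzma stood at 417, 464, 1622 and 74.2 CPM in CD8 T cells and at 5363, 12689.6, 4452 and 3203 CPM in NK cells, so the classes did not overlap (log2 fold change -3.57 ± 0.60, adjusted p = 0.0138 in edgeR). In KO sham, 1 barcode held 488 of the 675 Gzma UMIs of the CD8 T cells, and in WT P1 MI replicate 2, 1 held 169 of 178. Prf1, encoding the pore former perforin, was lower by -3.69 ± 0.36, Gzmb, encoding granzyme B, by -2.88 ± 0.54, and Gzmc by -6.28 ± 0.64. The chemokine Xcl1 was lower by -4.05 ± 0.41. The signalling adaptors Tyrobp and Fcer1g, which couple NK receptors, stood at -3.94 ± 0.31 and -3.88 ± 0.19. The NK receptor genes Klrb1a, Klrb1b, Klrb1c, Klrb1f, Klre1 and Klrk1 were lower by -6.01, -5.26, -4.38, -4.71, -3.97 and -3.18. Reads of the Klrb1 genes may be split between close copies. Nrgn and Car2 were lower by -5.33 and -4.98. All of these were lower in 4 of 4 libraries. Ccl5 and Nkg7, which both classes express, had log2 fold changes of -1.35 ± 0.50 and -1.02 ± 0.28 and did not pass (adjusted p = 0.197 and 0.0795 in edgeR). At the cleaner gate Ccl5 was called lower (-1.03, adjusted p = 0.0385 in edgeR). There Ly6c2, of the memory and effector list, was called higher (1.75, adjusted p = 0.00497 in edgeR). The number of genes called was 59 without KO MI, 64 without KO sham and 98 without 8 week sham, and 169 (7.84%) at the cleaner gate, 109 of them among the 163.

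**Figure D3:**
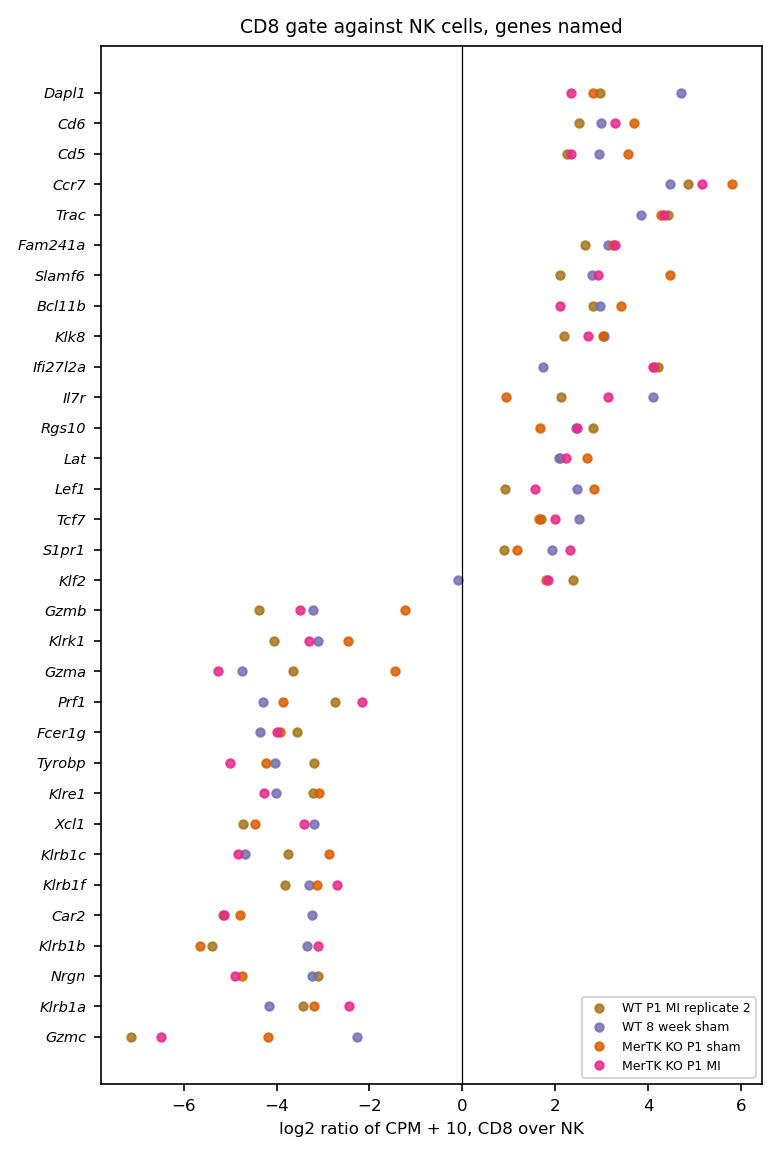
Log2 ratio of CD8 over NK levels (CPM + 10) per library for 32 named genes, 1 point per library (4 libraries). Genes of resting T cells lie to the right of 0 and cytotoxic genes to the left, except that Klf2 lies at about 0 in 8 week sham.

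Members with at least 1 UMI of Ccl5 were set against members with none in the 5 libraries with at least 10 members of each class (both KO libraries, both WT P1 libraries of at least 20 members, and 8 week sham). Ccl5 itself set the classes and was left out. Of 2815 genes tested, 20 were called (0.71%), 13 higher (0.462%) and 7 lower (0.249%) in Ccl5-positive members, with 4 residual degrees of freedom and library as a block. All 20 differed in the same direction in 5 of 5 libraries. The median depth of the Ccl5-positive members was above that of the others in 4 of 5 libraries (6430 against 5088.5 UMIs in 8 week sham) and below it in WT P1 MI replicate 2 (7757 against 9795.5), and its part in the result was not tested.

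Effector and memory genes were higher with Ccl5. Gzma stood at 314, 1332, 876, 2455 and 84.2 CPM in Ccl5-positive members against 16.1, 3.4, 6.69, 0 and 56.4 CPM in the others, in WT P1 sham, replicate 2 of WT P1 MI, 8 week sham, KO sham and KO MI (log2 fold change 6.51 ± 0.69, adjusted p = 0.00117 in edgeR). Its counts came from few cells, with 7, 3, 70, 10 and 3 members holding a UMI. The highest barcode held 59 of 97 Gzma UMIs in WT P1 sham and 169 of 178 in replicate 2. It held 211 of 1904 in 8 week sham, 488 of 675 in KO sham and 6 of 11 in KO MI. Nkg7 stood at 489, 1204, 1447, 1189 and 1358 CPM against 266, 235, 371, 708 and 658 CPM (1.34 ± 0.24, adjusted p = 0.0225). Cxcr3, the chemokine receptor of effector and memory T cells, was higher by 2.77 ± 0.41. The protease inhibitors Serpinb6b and Serpinb9, of which the latter blocks granzyme B, were higher by 2.74 ± 0.27 and 2.51 ± 0.39. Il18rap, a chain of the IL-18 receptor, and Cd160, a receptor of cytotoxic lymphocytes, stood at 2.66 ± 0.38 and 2.58 ± 0.32. Ly6c2, Hopx, AW112010, Jaml and Gng2 were higher by 1.26 to 1.93. Of 14 memory and effector genes tested, 4 were higher and none lower, with a median log2 fold change of 1.29 against -0.01 over all genes.

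Resting T cell genes were lower with Ccl5. Dapl1 stood at 57.4, 37.6, 158, 10.9 and 10.5 CPM in Ccl5-positive members against 234, 81.6, 367, 156 and 93.9 CPM in the others (log2 fold change -1.92 ± 0.32, adjusted p = 0.0175 in edgeR). Klf2 stood at 418, 444, 829, 418 and 621 CPM against 689, 1482, 1289, 1098 and 827 CPM (-1.06 ± 0.20, adjusted p = 0.0346). Igfbp4 was lower by -1.68 ± 0.29 and Pik3ip1, an inhibitor of PI3 kinase signalling, by -1.38 ± 0.24. Tdrp, Tubb2a and Rgcc were lower by -1.96, -1.80 and -1.59. Of 17 naive genes tested, 3 were lower and none higher, with a median of -0.78. Other naive genes did not pass, with Ccr7 at -0.90 ± 0.22 (adjusted p = 0.132), Lef1 at -1.0 ± 0.26 (adjusted p = 0.153) and Il7r at -0.44 ± 0.34 (adjusted p = 0.818). At the cleaner gate Lef1 was called (-1.16, adjusted p = 0.000217 in edgeR), and Klf2 was not, at -0.91, under the fold required. The count was 4 without KO sham, 5 without 8 week sham, 9 without KO MI and 42 without WT P1 MI replicate 2. With the cleaner gate 28 genes were called (1.82%), 9 of them among the 20. At that gate WT P1 MI replicate 2 stayed in with 9 Ccl5-positive and 7 Ccl5-negative members, under the minimum of 10.

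**Figure D4:**
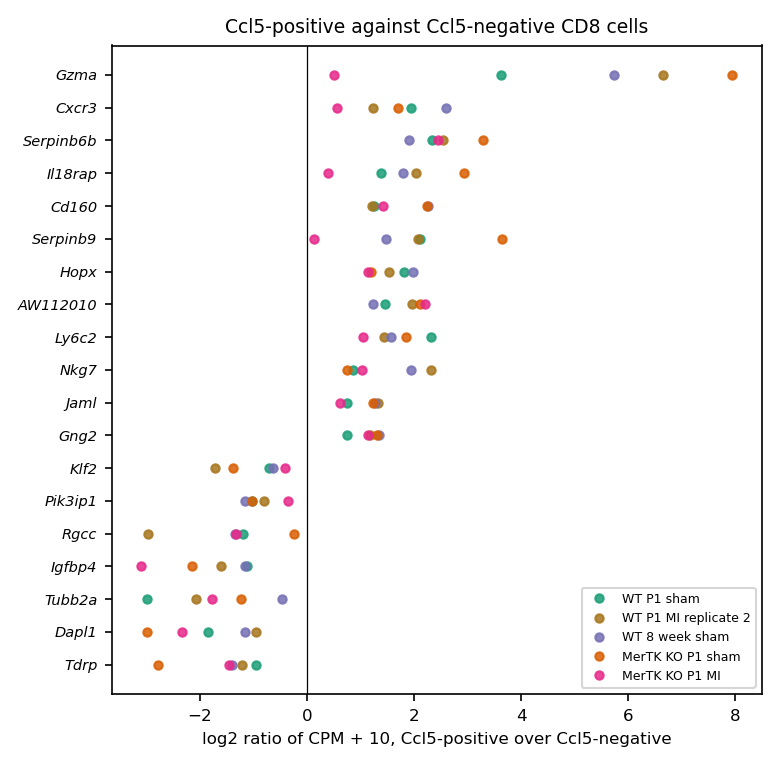
Log2 ratio of levels (CPM + 10) in Ccl5-positive over Ccl5-negative members per library for 19 of the 20 genes called, 1 point per library (5 libraries). The points of the 12 higher genes shown lie right of 0 and those of the 7 lower genes left of 0 in every library.

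Promoters of this Ccl5-linked group were read for 3 short motifs, since its genes moved together. The 250 bases before the RefSeq start (GRCm38.p6) were searched on both strands for TGTGGT (the core bound by Runx factors), TCACACC (bound by T-box factors) and CTTTGA (bound by TCF and LEF factors). The Runx letters occurred in 14.2% of 27025 promoters, in 6 of the 12 higher genes with an entry (Cd160, Cxcr3, Gzma, Jaml, Ly6c2 and Nkg7) and in 0 of the 6 lower genes. The T-box letters occurred in 3.31% of all promoters and in Nkg7 alone among the 18. The TCF and LEF letters occurred in 14.0% of all and in Il18rap alone. A match is only a run of letters. The background was all promoters and not those of the 2815 genes tested, and the shares were not tested against each other. Shown here are the promoters of 2 cytotoxic genes and 1 chemokine receptor gene that were higher with Ccl5, and of Dapl1, which was lower, each 5′ to 3′ on the gene's strand with matches in capitals (ACCACA is the Runx core and GGTGTGA the T-box letters, both read on the opposite strand). They lie at chr13:113100982-113101231 (minus strand) for Gzma, chrX:101734148-101734397 (minus) for Cxcr3, chr7:43436888-43437137 (plus) for Nkg7 and chr2:59484403-59484652 (plus) for Dapl1.
Gzma: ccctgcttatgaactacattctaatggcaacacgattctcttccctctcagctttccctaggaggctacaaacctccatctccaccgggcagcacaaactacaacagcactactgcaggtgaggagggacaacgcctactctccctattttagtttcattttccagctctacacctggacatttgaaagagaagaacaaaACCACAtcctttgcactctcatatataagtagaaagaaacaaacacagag
Cxcr3: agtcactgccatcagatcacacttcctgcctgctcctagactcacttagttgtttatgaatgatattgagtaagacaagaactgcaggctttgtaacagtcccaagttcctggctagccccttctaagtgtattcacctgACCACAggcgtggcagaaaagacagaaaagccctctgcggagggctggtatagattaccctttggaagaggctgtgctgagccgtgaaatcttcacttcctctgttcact
Nkg7: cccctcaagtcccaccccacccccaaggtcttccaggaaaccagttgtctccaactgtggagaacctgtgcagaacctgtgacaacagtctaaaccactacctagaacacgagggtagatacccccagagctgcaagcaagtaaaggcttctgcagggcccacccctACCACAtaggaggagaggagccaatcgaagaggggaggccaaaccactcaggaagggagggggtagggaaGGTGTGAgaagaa
Dapl1: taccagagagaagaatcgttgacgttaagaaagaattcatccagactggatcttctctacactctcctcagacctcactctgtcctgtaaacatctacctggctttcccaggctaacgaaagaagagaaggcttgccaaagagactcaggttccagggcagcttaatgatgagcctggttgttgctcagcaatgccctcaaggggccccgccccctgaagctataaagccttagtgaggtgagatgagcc
The first 3 each hold 1 Runx match, Nkg7 also a T-box match, and the Dapl1 window none of the 3 motifs.

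Age, injury and genotype were compared in 1 additive fit over the 5 libraries with at least 20 members (KO sham, KO MI, 8 week sham, WT P1 sham and replicate 2 of WT P1 MI). The fit had 1 library per group and 1 residual degree of freedom, and 8 week sham was the only adult library. That degree of freedom measures how far the P1 libraries departed from additive effects of injury and genotype, not a spread among replicates. No spread between adult libraries entered the p-values for age. Markers of other cell types moved with these contrasts. The median member took 0.0424% to 0.103% of its UMIs from markers of B cells, macrophages, neutrophils, endothelium, fibroblasts and erythroid cells in the 6 libraries other than 8 week MI. Yet 8 of 29 members exceeded 1% in WT P1 MI replicate 2, against 3 of 52, 47 of 630, 0 of 50 and 2 of 28 in the other 4 tested libraries. Summed over 7 fibroblast markers, the level ranged from 50.5 to 7813 CPM over the tested libraries, and from 55.7 to 110 CPM at the cleaner gate. For 6 endothelial markers it ranged from 62.5 to 6689 CPM, and from 48.2 to 107 CPM at the cleaner gate. For 10 neutrophil markers it ranged from 23.9 to 3131 CPM, and from 25.8 to 753 CPM. For 10 B cell markers it ranged from 101 to 2833 CPM, and still from 90.8 to 2867 CPM at the cleaner gate. The 12 macrophage markers ranged from 151 to 580 CPM. The part of these transcripts in the age, injury and genotype results was not tested, and each count is given below with its value at the cleaner gate. Libraries were not chosen anew at that gate, where WT P1 MI replicate 2 stayed in with 16 members, under the minimum of 20. In 8 week MI, 4 of 8 members exceeded 1%, the median was 1.23%, and the macrophage gene Lyz2 reached 8177 CPM, against 0 to 175 CPM in the other 6 libraries.

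**Figure D5:**
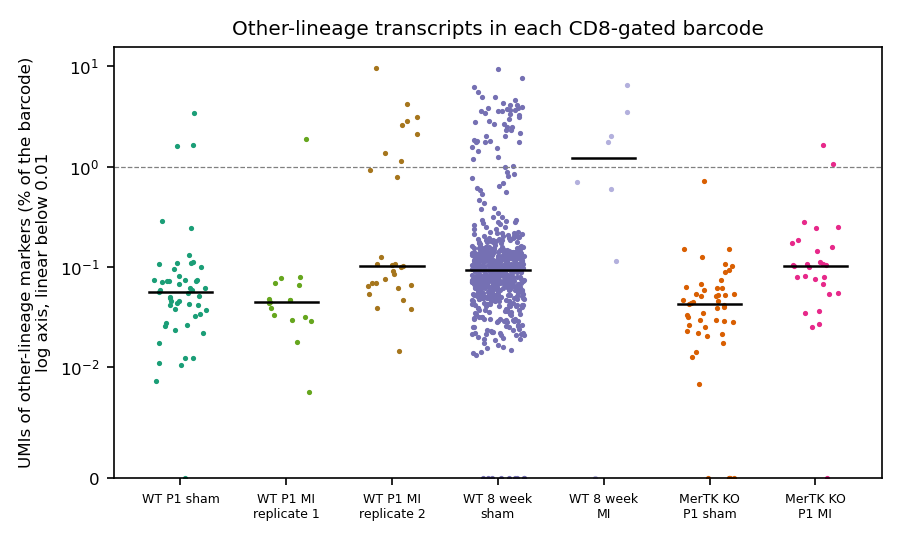
Percent of each CD8-gated barcode's UMIs that come from markers of 6 other lineages, on a log axis that is linear below 0.01, 1 point per member by library. Black lines are medians and the dashed line marks 1%. In WT P1 MI replicate 2, 8 of 29 members lie above the dashed line, and in KO sham none of 50.

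Memory and effector genes were called on the adult side of the age comparison. Of 29 such genes tested between 8 weeks and P1, 10 were higher and none lower (S100a4, Klrg1, Klrk1, Nkg7, Prf1, Ifng, Ccl5, Id2, Gzmk and Ly6c2), with a median log2 fold change of 1.45 against 0.02 over all genes. The background was 1.82% of 6499 genes called higher (118) and 1.17% lower (76), 2.99% in all. Ccl5 stood at 1247, 740, 2184 and 2341 CPM in the P1 libraries and at 3589 CPM in 8 week sham, above each of them (log2 fold change 1.99 ± 0.36, adjusted p = 5.08e-06 in edgeR). At the cleaner gate it was 1.92 (adjusted p = 0.0244) and in DESeq2 it also passed (adjusted p = 0.0155). With WT P1 MI replicate 1 added at 15 cells, chosen after seeing the data, it was 1.85 and did not pass (adjusted p = 0.932 in edgeR). That fit called 3 genes, all lower at 8 weeks, and DESeq2 called 11 in the 5 libraries. 8 week MI, outside the fit, stood at 3173 CPM and WT P1 MI replicate 1 at 1698 CPM. By share of members with a Ccl5 UMI, 8 week sham did not stand above every P1 library. Without thinning it had 45.4%, against 48.1% (WT P1 sham), 44.8% (replicate 2), 58.0% (KO sham) and 60.7% (KO MI). With cells thinned to 1500 UMIs, it lay above the WT P1 libraries and below the KO libraries, with overlapping intervals. The highest barcode held 300 of 679, 141 of 316, 254 of 909 and 66 of 347 Ccl5 UMIs in these P1 libraries. In 8 week sham it held 448 of 14724.

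Other memory genes were called in the fit but not at the cleaner gate. S100a4, a calcium-binding protein of memory T cells, stood at 114, 86.7, 305 and 202 CPM against 540 CPM (2.47 ± 0.51, adjusted p = 0.000135 in edgeR, and 0.0709 at the cleaner gate). Nkg7 was higher by 1.45 ± 0.44 and Ly6c2 by 1.49 ± 0.46, with adjusted p = 0.314 and 0.259 at the cleaner gate. Ly6c2 stood at 650 CPM in the adult library but at 786 and 702 CPM in the KO libraries, so that age groups overlapped. Id2, a regulator of effector differentiation, stood at 66.1, 63.2, 137 and 135 CPM against 240 CPM (2.14 ± 0.50, cleaner gate adjusted p = 0.0850). Gzmk, encoding granzyme K, stood at 38.3 CPM in 8 week sham, 67.3 CPM in KO sham and 0 in the other 3 tested libraries, and its log2 fold change turned to -0.47 without WT P1 sham.

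Naive genes did not separate the ages. None of 19 was called, with a median log2 fold change of 0.11. Ccr7 stood at 610, 281, 550 and 351 CPM at P1 against 288 CPM at 8 weeks, the ages overlapping. Dapl1 stood at 138, 67.9, 60.1 and 40.5 CPM against 257 CPM, and its log2 fold change of 1.23 ± 0.49 did not pass (adjusted p = 0.215 in edgeR). The hyaluronan receptor Cd44 stood at 6.75 to 38.6 CPM against 49.5 CPM (0.54 ± 0.54, adjusted p = 0.829).

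Early-life transcripts were lower at 8 weeks. Igf2bp3, an RNA-binding protein of fetal and neonatal cells, stood at 40.4, 37.5, 48.1 and 33.7 CPM in the tested P1 libraries, 56.6 CPM in WT P1 MI replicate 1, 4.14 CPM in 8 week sham and 0 in 8 week MI. The ages did not overlap, and the log2 fold change was -3.05 ± 0.64 (adjusted p = 0.000257 in edgeR), which did not pass at the cleaner gate (adjusted p = 0.297). Sox4, a factor of progenitors and thymocytes, was lower by -3.26 ± 0.53 (cleaner gate adjusted p = 0.103). Of 6 thymocyte and early-life genes tested, these 2 were lower and none higher.

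The inducible heat shock genes Hspa1a and Hspa1b were higher in the adult library, by 4.94 ± 0.67 and 4.85 ± 0.67, and also passed at the cleaner gate (adjusted p = 0.0306 and 0.0244 in edgeR). Hspa1a stood at 9.18, 72.6, 0 and 0 CPM at P1 against 239 CPM at 8 weeks. Such genes are known to rise during digestion of tissue, and handling and age cannot be told apart with 1 adult library. Of 14 heat shock and dissociation genes, 3 were higher. Of 23 interferon response genes, 6 were higher, among them Ifi27l2a (2.43 ± 0.52, cleaner gate adjusted p = 0.113). Fibroblast and macrophage transcripts led the age calls: 5 of 7 fibroblast markers were higher, Dcn by 5.24 and Col1a1 by 6.0 (-0.08 without WT P1 sham), and the macrophage gene Lyz2 was higher by 5.47. The other named genes on this side were Col1a2, Mgp, Timp1, Retnlg and Xcl1. The named lower genes included Egr1, Tubb2a, Rgs5, Col4a1, Col4a2, Cstdc5, Cpa3, Cma1, Tpsb2 and the mast cell protease Mcpt4. All 365 UMIs of Mcpt4 lay in 1 barcode of WT P1 sham. Among the 194 called genes, 25.8% took over 50% of their UMIs in their highest library from 1 barcode. The cleaner gate left 11 age calls (0.24% of 4588), of which 9 were among the 194. These 9 included the myeloid transcripts S100a8, S100a9, Lyz2 and Retnlg, beside Ccl5 and the heat shock genes. Xist, chosen after its values were seen, stood at 202 to 853 CPM in the 5 P1 libraries and at 0 in both 8 week libraries. In 8 week MI that 0 came from only 16387 UMIs over 8 members. The mix of sexes within each library is not given, and a difference in sex cannot be told apart from age.

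Fibroblast transcripts led the comparison of MI with sham. Of 5078 genes tested, 78 were called (1.54%), 68 higher (1.34%) and 10 lower (0.197%) after MI. With DESeq2's size factors in edgeR the split was 209 higher and 68 lower. Of 7 fibroblast markers, 6 were higher (Dcn by 6.09 ± 1.14, Col1a1 by 5.77 ± 1.16), and Dcn stood at 1583 CPM in WT P1 MI replicate 2 against 20.2 CPM in KO MI and 7.35 and 9.61 CPM in the P1 sham libraries. WT P1 MI replicate 1, outside the fit, had 15.4 CPM of Dcn. The other named genes were Col3a1, Col1a2, Mgp, Meg3, Cebpd, Cxcl1 and Retnlg. The cleaner gate gave 13 calls (0.365%), 5 of them among the 78. The other 8 were Ccl4, a chemokine of activated T cells (4.24, adjusted p = 0.00178 in edgeR), Ly6a, Isg15, Pclaf, Hist1h1b, Ier3 and Ccl5, all higher after MI, and Ikzf2, encoding the transcription factor Helios, which was lower by -3.16 (adjusted p = 0.00785). Over all members of WT P1 MI replicate 2, 2 barcodes held 122 and 114 of the 245 Ccl4 UMIs. Replicate 1, outside the fit, held 1 Ccl4 UMI. In MerTK KO, Ccl4 was not higher after MI, with 7 of 148222 UMIs in KO MI against 40 of 416179 in KO sham. With replicate 1 of WT P1 MI added at 15 cells, none was called (106 at an unadjusted p under 0.05 in edgeR), and DESeq2 called 12 in the 5 libraries.

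Ifitm1, an interferon-induced membrane protein, was the 1 gene called higher after MI both in these libraries and at the cleaner gate. It stood at 1.84 and 14.4 CPM in the P1 sham libraries and at 564 and 101 CPM in WT P1 MI replicate 2 and KO MI, without overlap (log2 fold change 5.34 ± 0.85, adjusted p = 0.0228 in edgeR, and 6.30, adjusted p = 0.00178, at the cleaner gate). WT P1 MI replicate 1, outside the fit, held 0 UMIs of it. In replicate 2, 106 of its 241 UMIs lay in 1 barcode and 8 of 29 members held any, and in KO MI 10 of 28 did. Gzmb was lower after MI by -2.85 ± 0.59 (adjusted p = 0.0491, and 0.369 at the cleaner gate), at 27.5 and 320 CPM in sham against 9.37 and 20.2 CPM in MI. Itga4, an integrin chain for homing to inflamed vessels, was lower by -1.94 ± 0.39 (adjusted p = 0.0425, and 0.0621 at the cleaner gate). The MHC class II genes H2-Aa, H2-Ab1 and H2-Eb1 and Cd74, which B cells and macrophages express, were also lower. In WT P1 sham 428 of the 431 UMIs of Cd74 lay in 1 barcode. Ccl5 stood at 1247 and 2184 CPM in sham and 740 and 2341 CPM in MI, with a log2 fold change of -0.24 ± 0.32 (adjusted p = 0.752 in edgeR). WT P1 MI replicate 1, outside the fit, stood at 1698 CPM, so by level replicate 2 lay below WT P1 sham and replicate 1 above it. In replicate 1, however, 1 barcode held 197 of the 330 Ccl5 UMIs. In replicate 2, 1 held 141 of 316, and in WT P1 sham 1 held 300 of 679. By thinned share of members both replicates lay below WT P1 sham, with overlapping intervals. At the cleaner gate the log2 fold change of Ccl5 was 1.22 (adjusted p = 0.00103), so its direction depended on which barcodes were kept. None of 19 naive genes was lower. Ly6c1, of the same list, was higher by 2.98 ± 0.47, and its reads may be shared with Ly6c2.

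Between MerTK KO and WT, 118 genes were called (2.32% of 5078), 6 higher (0.118%) and 112 lower (2.21%) in MerTK KO. Cd160 stood at 147 and 128 CPM in KO sham and KO MI, against 14.7, 28.1 and 38.5 CPM in WT P1 sham, replicate 2 of WT P1 MI and 8 week sham, and 15.4 CPM in replicate 1. The genotypes did not overlap in these libraries (log2 fold change 2.71 ± 0.44, adjusted p = 0.0131 in edgeR), and the gene passed at the cleaner gate (2.94, adjusted p = 0.0101) and in DESeq2 (adjusted p = 0.0459). A UMI of Cd160 was seen in 20 of 50 and 9 of 28 members of the KO libraries, and in 5 of 52 and 7 of 29 of the 2 tested WT P1 libraries. Gimap7, a GTPase of resting lymphocytes, stood at 139 and 121 CPM against 29.4 and 21.1 CPM in the WT P1 libraries, and at 125 CPM in 8 week sham (2.30 ± 0.40, adjusted p = 0.0177, and 0.0224 at the cleaner gate). The early activation and residency marker Cd69 stood at 183 and 169 CPM against 27.5 and 32.8 CPM in the WT P1 libraries, 61.8 CPM in WT P1 MI replicate 1 and 193 CPM in 8 week sham (2.51 ± 0.39, adjusted p = 0.0113, and 0.0586 at the cleaner gate). For Gimap7 and Cd69, the KO levels therefore lay near those of the WT adult library.

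Gzmb was higher in MerTK KO by 2.98 ± 0.54 (adjusted p = 0.0197 in edgeR), at 320 CPM in KO sham but 20.2 CPM in KO MI, and 51.9% of its UMIs in the first lay in 1 barcode. It did not pass at the cleaner gate (adjusted p = 0.193). Gzmk and Cenpf completed the higher side. Ccl5 had a log2 fold change of 1.19 ± 0.33 (adjusted p = 0.120) and Nkg7 of 1.18 ± 0.32 (adjusted p = 0.110), and neither passed. At the cleaner gate their log2 fold changes were 0.06 and 0.23. Of 25 memory and effector genes, 2 were higher and none lower, with a median of 1.02 against 0.01 over all genes. The lower side was led by MHC class II genes and Cd74, the mural cell genes Acta2 and Rgs5, Hspa1a, Postn, Cebpd and Cd63, and held 4 of 5 B cell markers (the MHC class II genes among them) and 3 of 7 fibroblast markers tested. H2-Aa stood at 0 in both KO libraries and at 404, 11.7 and 568 CPM in the 3 WT libraries. In WT P1 sham, 1 barcode held 428 of the 431 Cd74 UMIs, and 1 held 819 of the 919 UMIs of the B cell markers. The cleaner gate gave 17 calls (0.477%), 7 of them among the 118. These 7 were H2-Aa, H2-Ab1, H2-Eb1, Cd74, Cd160, Gimap7 and Alox5ap. Over all 118, 38.1% took over 50% of their UMIs in their highest library from 1 barcode. With WT P1 MI replicate 1 added, edgeR called none (349 at an unadjusted p under 0.05), and DESeq2 called 60 in the 5 libraries.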

How the data were processed

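UMI counts per gene and cell barcode were deposited without normalization. The authors made them with Cell Ranger against GRCm38 (mm10), per the submitters' processing notes. Per the file headers, version 4.0.0 was used for 5 libraries, and version 6.1.0 for 8 week sham and replicate 2 of WT P1 MI. The kits were 10x Genomics 3' kits, per the labels' protocols, with a chemistry that is not given per library. Cells were kept from 500 UMIs and 300 genes upward when mitochondrial UMIs made up no more than 15%. No doublet caller was applied beyond the gate. As an alternative, the cells with the highest Scrublet scores were removed (scanpy 1.11.5).

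Counts of gated cells were summed per library, since cells are not replicates, and tested with edgeR 4.0.16 in R 4.3.3 (quasi-likelihood test, TMM scaling, filterByExpr). P-values were adjusted by Benjamini-Hochberg over all genes tested, and DESeq2 1.42.0 was an alternative. Standard errors are approximate, taken as the size of the log2 fold change over the square root of F. Nothing states that libraries came from separate animals, so p-values of the class comparisons reflect only how these libraries spread, which may be technical. Those of the additive fit rest on departure from additivity among the P1 libraries, as given above. The injury by genotype interaction was planned, but WT P1 MI replicate 1 held 17 members, under the minimum of 20. Genes were named when among the 10 largest or 10 smallest called changes with at least 100 CPM on the higher side and 30 UMIs, leaving out predicted, mitochondrial, ribosomal, haemoglobin, immunoglobulin and sex-linked genes. Called list members, and those of highest level in each list, were named too. Ccl5, Dapl1, Gzma, Gzmb, Ccr7, Cd44, Il7r and Mertk were always eligible. Some genes that met these rules are not reported here. The members and lists were chosen with earlier results of these data known. Promoters came from RefSeq (GRCm38.p6) and gene positions from GENCODE on GRCm38. The functions were tested on simulated data.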

Additional observations from a re-analysis of the deposited data

Results flagged for a closer look

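The share of CD8 T cells with a Ccl5 UMI, with cells thinned to 1500 UMIs, moved in opposite directions after MI in the genotypes. It moved by -5.32 percentage points in WT P1 MI replicate 1 and by -8.16 in replicate 2, each against WT P1 sham, and by 8.95 in KO MI against KO sham. The share with an Nkg7 UMI moved by -3.17 and -0.531 percentage points in the WT replicates and by 4.16 in MerTK KO. The difference between the genotypes was not tested, and each MI share lies within the 95% exact interval of its sham share.

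Cells with UMIs of both Cd4 and CD8, which no comparison used, held the recombinase gene Rag1 in 66.7% of 18 cells in WT P1 sham (12 cells, 95% exact interval 41.0 to 86.7). It was seen in 2 of 7 such cells in KO sham, 0 of 54 in 8 week sham and 0 of 2 in WT P1 MI replicate 2.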

How the results depend on the processing

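Alternatives with at least 15 cells per library were chosen after seeing the data. At the stricter and cleaner gates and with Scrublet scores removed, the libraries of the main tests were kept, also where fewer cells than the minimum were left. For age, 194 genes were called, against 11 with DESeq2, 109 at a stricter gate of at least 2 UMIs, 11 at the cleaner gate and 3 at 15 cells. For injury (78) the count was 277 with RLE size factors, 12 with DESeq2, 319 with no filter on low counts, 19 at the stricter gate, 17 with the highest Scrublet scores removed, 13 at the cleaner gate and 0 at 15 cells. It was 136 without 8 week sham. For genotype (118) it was 273 with RLE, 60 with DESeq2, 324 with no filter, 46 with the highest Scrublet scores removed, 17 at the cleaner gate and 0 at 15 cells, and 180 without 8 week sham. For CD8 against CD4 (14) it was 45 with DESeq2, 284 with no filter, 40 at the stricter gate, 42 with the highest Scrublet scores removed, 46 at the cleaner gate and 36 at 15 cells. Leaving out 1 library gave 0 to 261, and no library block gave 0 (155 at an unadjusted p under 0.05 in edgeR). For CD8 against NK (163) it was 434 with no filter, 89 with no library block, and 59 to 199 with 1 library left out. For the Ccl5 classes (20) it was 94 with no filter, 10 at the stricter gate, 40 with the highest Scrublet scores removed, 4 with no library block, and 4 to 42 with 1 library left out. The cause of these moves was not tested.

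The CD8 share of CD8 and CD4 gated cells moved at the stricter gate to 60.0% in WT P1 sham, 88.2% in replicate 1 of WT P1 MI, 76.7% in replicate 2, 80.8% in 8 week sham, 100% in 8 week MI, 73.3% in KO sham and 95.7% in KO MI. Thinned to 1500 UMIs, it was 62.7% in WT P1 sham, 74.9% in 8 week sham, 100% in 8 week MI and 84.0% in KO sham. The CD8 share of all cells, thinned, was 1.00% in WT P1 MI replicate 1, 3.29% in 8 week sham and 0.257% in KO MI, and at the stricter gate 3.59% in 8 week sham and 0.0639% in 8 week MI. The Ccl5 share without thinning was 48.1% in WT P1 sham, 44.8% in replicate 2 of WT P1 MI and 45.4% in 8 week sham.

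Directions reversed for 4 log2 fold changes. Gzmk with age ran from -0.474 (without WT P1 sham) to 8.80 with 1 library left out and was -0.481 with the Cell Ranger version as a covariate. Col1a1 with age ran from -0.0751 to 8.15 and was -0.0749 with that covariate. Ccl5 with injury was 0.650 with the highest Scrublet scores removed, 1.22 at the cleaner gate, 0.242 with the version covariate and 0.0946 at 15 cells, and ran from -0.792 (without KO MI) to 0.252 (without WT P1 MI replicate 2) with 1 library left out, at 0.200 once WT P1 sham was left out. Dapl1 with injury was 0.337 with the highest Scrublet scores removed. Of single-gene results under the alternatives, which included shares of members with Dapl1 or Igf2bp3, 946 were unchanged. A further 174 were weaker and 3 stronger, and 55 values with no test moved. Unchanged meant the same direction and call where a test was run. Without a test it meant a log2 fold change within the main fit's standard error, or a share within its interval. Not all of the 946 thus had a call to keep.

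No paired analysis was possible because only WT P1 MI carries replicate numbers in the labels. Comparisons of classes instead have the library as a block, and without it the counts are those given above. The injury by genotype interaction and a fit with a mean per group were not run, since WT P1 MI replicate 1 held 17 members. Leaving out any P1 library of the additive fit, or adding the Cell Ranger version, left no residual degree of freedom, so those values carry no test.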

Other observations

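The 18 cells of WT P1 sham with UMIs of both Cd4 and CD8 also held other genes of developing thymocytes. Dntt, the terminal transferase of receptor rearrangement, was seen in 8 of them, and Arpp21 in 10. None held a Ccl5 UMI, which allows a share of cells with a UMI of up to 18.5% by the exact interval and does not limit the share expressing it. In the CD8 gate of the same library, Rag1 was seen in 2 of 52 members, and in no member of the other 6 libraries. In 8 week sham the 54 cells with both coreceptors had a median of 12638 UMIs, against 5427.5 in the CD8 gate. Of these 54, Ccl5 was seen in 30, Dntt in 2 and Rag1 in none. No test was run on these cells.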
